A study of Mus musculus with 30 samples.

Results

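The libraries described here measure what the loss of IRF2 did to the transcriptome of DC3.2 cells, a mouse line that its submitters describe as dendritic, under 3 treatments with a single library each. They are 6 of the 30 libraries of the series, taken by their titles. Of these 6, 3 are labelled Irf2KO and 3 carry no edit in the title and are called WT. Each genotype was sequenced at 0 h, after 2 h with interferon alpha (IFNα) and after 2 h with LPS, the bacterial lipopolysaccharide that activates the receptor TLR4. Each Irf2KO library was set against the WT library of the same treatment, which gives 3 pairs. The treatment protocol puts IFNα at 5000 U/mL and mentions neither LPS nor a harvest at 0 h, so the LPS dose is not known. The other 24 libraries form 12 groups of 2 and hold 4 genotypes, among them IRF2KO and WT in media and with IFNα. For the 6 single libraries the labels give neither the means by which Irf2 was disrupted, nor whether the Irf2KO line is 1 clone, nor a targeting control. Effects of the missing protein and other differences between the lines therefore cannot be told apart. Values are TPM, the share of transcripts in a library after allowing for their length, from which read totals cannot be had, so the depth is unknown.

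IRF2 and IRF1 are DNA-binding proteins of the interferon regulatory factor family that recognise the same short element, the interferon-stimulated response element, in the promoters of interferon-inducible genes. IRF1 is a strong activator that interferon itself induces. IRF2 is present in resting cells and was first described as an antagonist of IRF1, and at other genes it acts as an activator. Type I interferon signals through a separate complex, ISGF3, which holds IRF9 and binds the same kind of element.

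Between 9971 and 10186 genes reached 1 TPM in each library, and the most abundant transcript, the ferritin gene Ftl1, took 2.13% to 2.3%. Irf2 itself stood at 19.7, 31.3 and 12.4 TPM in Irf2KO cells at 0 h, with IFNα and with LPS, against 24.8, 35.5 and 17.3 TPM in WT cells. The Irf2KO value was the lower one in each pair, and the mean difference of log2(TPM + 1) was −0.31 ± 0.10 (SE, 3 pairs; adjusted p = 0.089, limma). Where the edit lies in the gene was not used here, and an edited transcript can still be counted, so the Irf2 level is no test of the genotype. Of the dendritic cell markers, Flt3, Clec9a, Ly75, Siglech and Bcl11a were listed at 0 in all 6 libraries and Zbtb46 reached at most 1.3 TPM. Batf3 and Irf8 were present. Macrophage genes were abundant, with Cd68 between 827.5 and 911 TPM and Lyz2 between 617 and 665 TPM. The summed level of 16 dendritic cell markers was 1552, 1492 and 474 TPM in Irf2KO cells, against 1395, 1192 and 401 TPM in WT cells, most of it from Id2. The sum of 16 macrophage and monocyte markers was 2282, 2344 and 2172 TPM in Irf2KO cells, against 2407, 2586 and 2438 TPM in WT cells. Lymphocyte markers summed to 0.5 TPM or less and fibroblast markers to 1.5 TPM or less in every library.

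Over the 3 pairs, 278 of 10410 tested genes were called higher in Irf2KO cells (2.67%) and 219 lower (2.1%), together 4.77% (limma with treatment as a term, Benjamini-Hochberg adjusted p under 0.05). At an unadjusted p under 0.05 there were 1786 genes. Of the 497 called genes, 495 differed in the same direction in all 3 pairs. Most differences were modest. Their median size was 0.52 on the log2(TPM + 1) scale, and 68 reached 1, of which 42 were higher and 26 lower in Irf2KO cells. The spread in this test comes from how far the 3 pairs disagree, so it holds both noise and any dependence of the difference on treatment, on 2 residual degrees of freedom. No pair had a repeat of its own, and an exact sign-flip test over 3 pairs of 1 gene cannot go below p = 0.25. After median-of-ratios scaling the calls were 290 higher and 143 lower, which moves the share of higher calls to 67%, against 55.9% as deposited. Without the treatment term 10 genes were called in each direction, with 1 prior variance for all genes 70 higher and 52 lower, and without the filter on low values 95 and 53. In bulk samples such as these, fewer cells that express a gene and less of its RNA per cell cannot be told apart.

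In single pairs, where there is no test, 69 genes were at least 2-fold higher (0.663%) and 58 at least 2-fold lower (0.557%) in Irf2KO cells at 0 h. With IFNα the counts were 75 (0.72%) and 49 (0.471%), and with LPS 57 (0.548%) and 52 (0.5%). In all 3 pairs together 23 genes were at least 2-fold higher (0.221%) and 14 at least 2-fold lower (0.134%). The 23 higher genes hold 7 guanylate-binding protein genes, and the rest include antiviral genes, the checkpoint ligand gene Cd274 and the itaconate enzyme gene Irg1. The 14 lower ones hold the pore-forming Gsdmd, the RNA sensors Ifih1 and Tlr3, the protease gene Ctso, and several metabolic genes. In 519 genes all 3 Irf2KO libraries lay above all 3 WT libraries (4.99%), and in 848 below (8.15%).

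**Figure D1:**
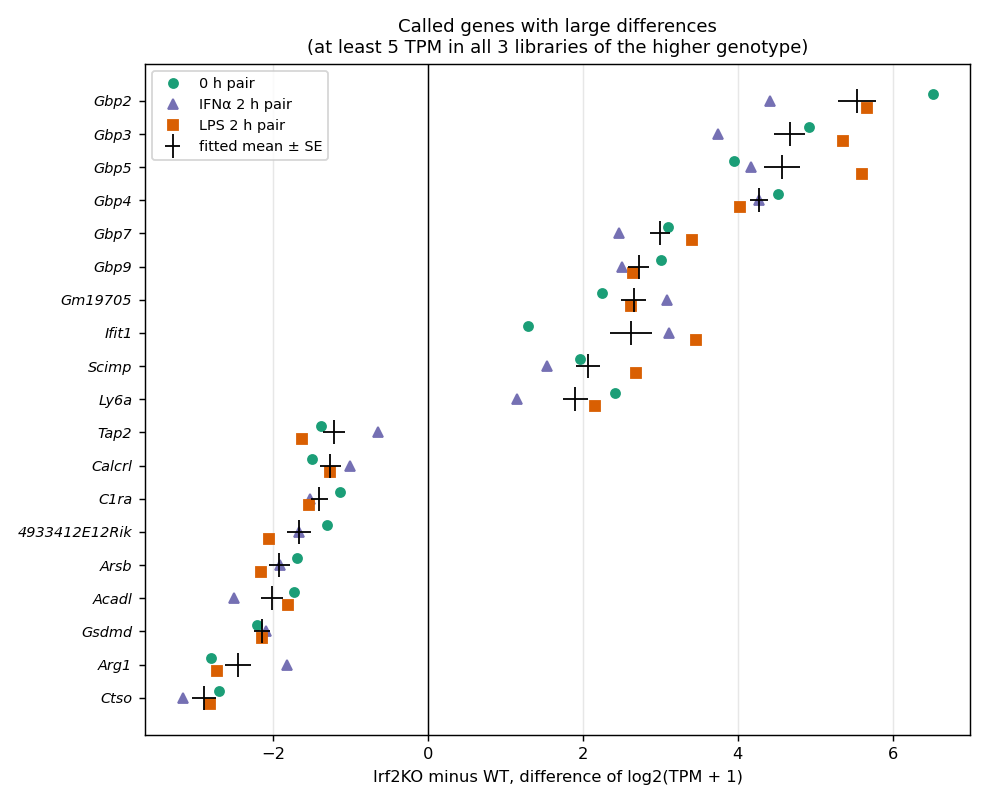
Difference of log2(TPM + 1), Irf2KO minus WT, for 10 genes called higher and 9 called lower that are among those with the largest differences and have at least 5 TPM in all 3 libraries of the higher genotype. Each symbol is 1 pair and the black mark is the fitted mean with its SE. Gbp2 lies farthest to the right with a mean of 5.54, Ctso farthest to the left with −2.90, and the 3 pairs of every gene shown fall on the same side of 0.

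The guanylate-binding proteins (GBPs), interferon-inducible GTPases that attack the vacuoles and membranes of intracellular pathogens, showed the largest differences. Of 11 genes listed 9 were tested, and 8 of these were called higher in Irf2KO cells and 0 lower, beside 2.67% and 2.1% of all tested genes. The median difference of the 9 was 2.99, against −0.02 for all tested genes. Gbp2 stood at 144, 586 and 448 TPM in Irf2KO cells at 0 h, with IFNα and with LPS, against 0.58, 26.5 and 7.8 TPM in WT cells. Gbp3 stood at 224, 394 and 335 TPM in Irf2KO cells, against 6.45, 28.6 and 7.22 TPM in WT cells. For both genes the untreated Irf2KO library exceeded the WT library that had received IFNα. The mean differences were 5.54 ± 0.24 for Gbp2 and 4.67 ± 0.20 for Gbp3 (adjusted p = 5.7e-09 and 4.6e-09, limma). Gbp4 stood at 46.1, 187 and 28.9 TPM in Irf2KO cells, against 1.05, 8.71 and 0.83 TPM in WT cells, a difference of 4.28 ± 0.12 that varied little between pairs. Gbp7 stood at 181.5, 279 and 221 TPM in Irf2KO cells, against 20.3, 49.8 and 19.8 TPM in WT cells (2.99 ± 0.13). Gbp5 was listed at 0 in WT cells at 0 h and had 1.89 TPM with IFNα and 0.22 TPM with LPS there, while Irf2KO cells had 14.4, 51.0 and 58.6 TPM. The 3 Irf2KO libraries lay above the 3 WT libraries for each of these 5 genes, as they did for 4.99% of all tested genes. Gbp9 (2.72 ± 0.13), Gbp8 (2.27 ± 0.13) and Gbp6 (1.08 ± 0.21) were higher as well, from lower levels. With a prior variance robust to outlying genes the calls of Gbp2, Gbp3 and Gbp5 were lost (adjusted p = 0.098, 0.089 and 0.058) and 5 of the 9 GBP genes were called higher, and without the treatment term 2. Gbp genes are close paralogs, and reads shared between them may have been split by the submitters' estimation.

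**Figure D2:**
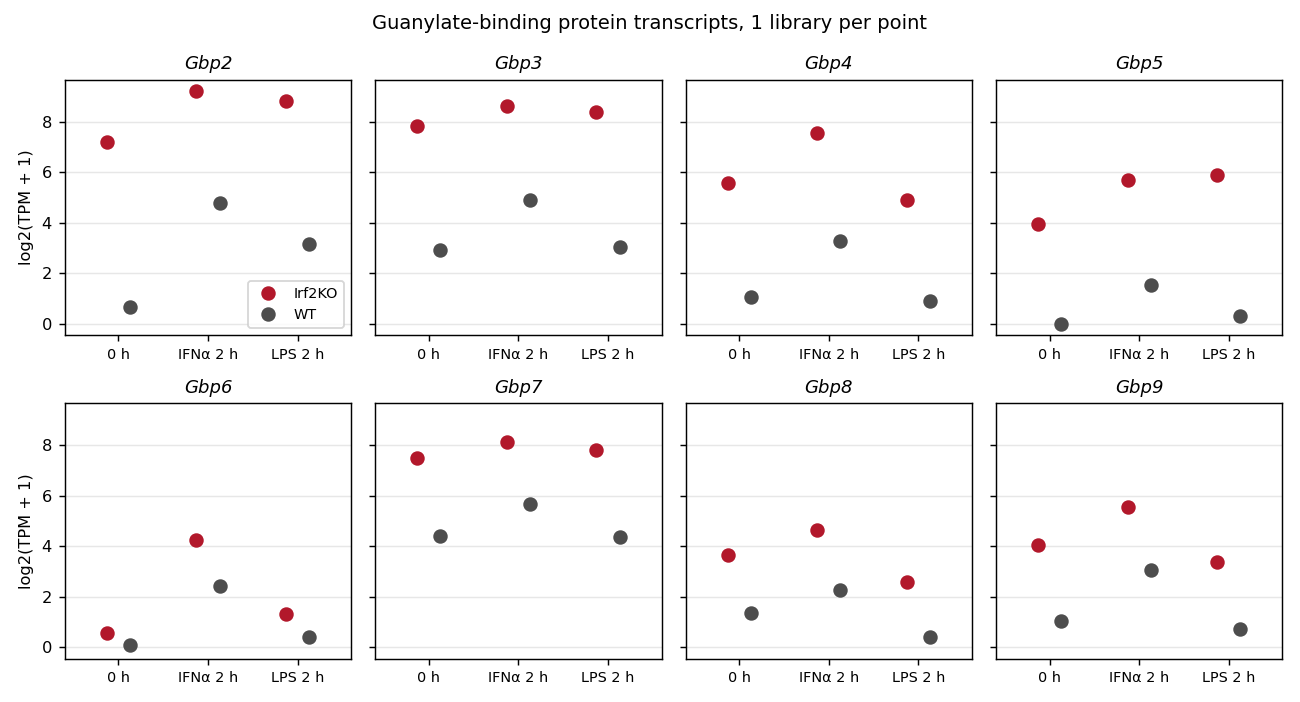
Level of 8 guanylate-binding protein genes as log2(TPM + 1) in each of the 6 libraries, 1 point per library, with Irf2KO in red left of WT in grey at each treatment. Irf2KO exceeds WT in every pair of points, and for Gbp2 and Gbp3 the untreated Irf2KO library, at 144 and 224 TPM, lies above the WT library with IFNα, at 26.5 and 28.6 TPM.

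The treatments moved these genes by different amounts in the genotypes. Gbp2 rose with IFNα by 2.02 on the log2(TPM + 1) scale in Irf2KO cells, against 4.12 in WT cells, and Gbp3 by 0.81 against 1.99. The difference of Gbp2 between the genotypes was smaller with IFNα (4.42) than at 0 h (6.52). With LPS Gbp5 rose by 1.95 in Irf2KO cells, against 0.29 in WT cells. These are values of single libraries with no test.

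The promoters of the 3 GBP genes with the largest differences are shown because these genes moved together. Gbp2, Gbp3, Gbp5 and Gbp7 lie side by side on chromosome 3, between 142496934 (start of Gbp5) and 142638008 (end of Gbp2), and Gbp4 and Gbp9 lie on chromosome 5 (105115767 to 105139586 and 105076464 to 105110357). The sequences are RefSeq's on GRCm38.p6, 5′ to 3′ on the strand of the gene, from 250 bases before the annotated start to 50 after. Capitals mark the core of the interferon-stimulated response element, GAAA followed by any 2 bases and GAAA again, searched on both strands, so that a copy on the other strand reads TTTC, 2 bases, TTTC.
Gbp2, chr3:142620413-142620712, plus strand: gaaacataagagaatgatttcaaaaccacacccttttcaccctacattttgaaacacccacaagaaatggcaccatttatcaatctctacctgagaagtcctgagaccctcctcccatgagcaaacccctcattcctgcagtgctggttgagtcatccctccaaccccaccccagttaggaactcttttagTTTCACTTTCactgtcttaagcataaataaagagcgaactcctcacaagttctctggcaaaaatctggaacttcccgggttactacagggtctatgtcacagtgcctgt
Gbp3, chr3:142559794-142560093, plus strand: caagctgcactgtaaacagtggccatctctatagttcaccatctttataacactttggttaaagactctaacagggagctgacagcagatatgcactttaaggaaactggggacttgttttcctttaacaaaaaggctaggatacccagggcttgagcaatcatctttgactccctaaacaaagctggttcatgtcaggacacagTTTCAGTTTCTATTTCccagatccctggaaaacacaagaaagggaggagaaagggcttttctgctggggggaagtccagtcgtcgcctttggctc
Gbp5, chr3:142496684-142496983, plus strand: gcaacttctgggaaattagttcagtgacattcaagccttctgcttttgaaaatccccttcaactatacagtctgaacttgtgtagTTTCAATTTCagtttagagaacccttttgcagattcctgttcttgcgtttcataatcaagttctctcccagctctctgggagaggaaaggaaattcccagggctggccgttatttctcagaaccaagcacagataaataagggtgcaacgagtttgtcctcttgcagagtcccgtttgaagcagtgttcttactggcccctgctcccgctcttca
In these windows the core begins 59 bases before the start of Gbp2, 45 and 39 bases before that of Gbp3, where a pair of copies overlaps, and 165 bases before that of Gbp5. Gbp3 has a second RefSeq start, at chr3:142560106-142560405, with no copy. A copy was also found before Gbp7. A match describes letters and does not show that a protein binds there.

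The immunity-related GTPases (IRGs), a second family that acts on pathogen vacuoles, differed in the same direction with smaller values. Of 10 tested genes 6 were called higher in Irf2KO cells and 0 lower, with a median difference of 0.72. The shares over all tested genes were 2.67% and 2.1%. Igtp (1.29 ± 0.10) had 17.4, 326 and 11.9 TPM in Irf2KO cells, against 6.59, 148 and 3.64 TPM in WT cells. Irgm1, a regulatory member of the family (0.99 ± 0.08), had 25.9, 504 and 24.4 TPM in Irf2KO cells, against 13.9, 248 and 10.97 TPM in WT cells. Igtp rose with IFNα by 4.15 in Irf2KO cells and by 4.29 in WT cells, so the IFNα response was of similar size in both. Irgm2 (1.07 ± 0.15), Gm4951 (1.06 ± 0.10), F830016B08Rik (0.90 ± 0.15) and Ifi47 (0.49 ± 0.11) were the others called. Ifi47 had 0.39 without the IFNα pair, where its call was lost (limma, adjusted p = 0.28). Without the filter or with 1 prior variance 4 IRG genes were called, and without the treatment term 0.

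The genes lower in Irf2KO cells were led by Ctso, which encodes the cysteine protease cathepsin O. Ctso had 0.15, 0.24 and 0.16 TPM in Irf2KO cells, against 6.46, 10.2 and 7.18 TPM in WT cells (−2.90 ± 0.16; adjusted p = 4.0e-08, limma). It stood below 1 TPM in each Irf2KO library and above it in each WT library. Gsdmd, whose product gasdermin D forms the membrane pores of pyroptosis, had 5.03, 6.8 and 5.76 TPM in Irf2KO cells, against 27.0, 32.2 and 29.0 TPM in WT cells (−2.15 ± 0.10; adjusted p = 1.6e-08). Its 3 pairs gave −2.21, −2.09 and −2.15, a difference that hardly varied with treatment. Acadl, a mitochondrial dehydrogenase of fatty acid oxidation, had 5.96, 4.22 and 5.72 TPM in Irf2KO cells, against 22.1, 28.8 and 22.6 TPM in WT cells (−2.02 ± 0.14). The lysosomal sulfatase gene Arsb (−1.92 ± 0.14), the uncharacterised 4933412E12Rik (−1.67 ± 0.15), the complement protease gene C1ra (−1.40 ± 0.11) and Calcrl (−1.26 ± 0.14), a receptor subunit for adrenomedullin, were also lower. Each kept the 3 Irf2KO libraries below the 3 WT libraries, as did 8.15% of all tested genes. The arginase gene Arg1 had 1.75, 3.92 and 1.85 TPM in Irf2KO cells, against 18.2, 16.3 and 17.95 TPM in WT cells (−2.45 ± 0.17). In the replicated libraries Arg1 varied strongly between replicates of 1 group, with 11.97 and 66.9 TPM in WT media, and the IRF2KO minus WT difference of −2.51 ± 1.33 in media was not called there (adjusted p = 0.73, and 0.0021 when the fit includes a block for replicate number). Among genes higher in Irf2KO cells outside the interferon lists, Scimp, an adaptor of MHC class II signalling, had 42.7, 46.9 and 43.4 TPM, against 10.2, 15.5 and 5.87 TPM in WT cells (2.06 ± 0.16). Ly6a, the surface antigen Sca-1, had 108, 329.7 and 81.8 TPM in Irf2KO cells, against 19.6, 149 and 17.6 TPM in WT cells (1.90 ± 0.16; not called with the robust prior, adjusted p = 0.20).

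Among the lowered genes in the plot of large differences, the 3 with the largest that RefSeq's table holds have their promoters shown for comparison with those of the GBP genes, on the same build and window.
Ctso, chr3:81932351-81932650, plus strand: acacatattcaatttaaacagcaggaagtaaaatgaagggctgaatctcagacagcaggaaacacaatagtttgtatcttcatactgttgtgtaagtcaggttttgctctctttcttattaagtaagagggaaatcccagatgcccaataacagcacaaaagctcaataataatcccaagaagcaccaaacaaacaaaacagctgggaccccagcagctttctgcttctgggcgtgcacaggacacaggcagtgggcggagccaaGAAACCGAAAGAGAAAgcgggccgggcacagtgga
Acadl, chr1:66863260-66863559, minus strand: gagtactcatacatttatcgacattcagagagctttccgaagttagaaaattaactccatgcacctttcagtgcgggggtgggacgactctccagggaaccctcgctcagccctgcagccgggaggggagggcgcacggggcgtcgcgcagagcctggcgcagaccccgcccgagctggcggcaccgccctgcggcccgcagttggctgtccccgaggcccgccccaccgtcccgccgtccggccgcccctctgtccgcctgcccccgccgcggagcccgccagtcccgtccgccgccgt
Arsb, chr13:93771429-93771728, plus strand: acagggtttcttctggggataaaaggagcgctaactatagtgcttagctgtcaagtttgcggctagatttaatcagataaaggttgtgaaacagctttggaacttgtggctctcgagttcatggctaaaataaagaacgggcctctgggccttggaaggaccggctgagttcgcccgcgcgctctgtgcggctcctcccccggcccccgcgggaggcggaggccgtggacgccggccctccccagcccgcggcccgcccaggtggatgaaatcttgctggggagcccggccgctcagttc
The Ctso window holds 2 overlapping copies of the core on the gene's own strand, which begin 16 and 22 bases into the transcribed part. Those of Acadl and Arsb hold none of these letters. Of the genes called higher in Irf2KO cells that have such a window, 39 of 219 hold at least 1 copy (17.8%), and of those called lower 15 of 169 (8.88%). Among genes at least 2-fold apart in all 3 pairs the counts were 10 of 16 higher (62.5%) and 3 of 10 lower (30.0%). Of all 8440 tested genes with a window 3.93% hold a copy, and of all 27025 genes with a RefSeq window 3.99%. These shares carry no test, and genes with no window are left out of them.

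Antiviral genes of the ISGF3 type were mostly called higher in Irf2KO cells where they were called. Of 44 tested genes 15 were called higher and 3 lower, beside 2.67% and 2.1% of all tested genes, with a median difference of 0.33. The counts were 8 and 2 with the robust prior, 3 and 1 with 1 prior variance, 6 and 1 of 45 without the filter, and 0 and 0 without the treatment term. At least 2-fold differences numbered 5 higher and 3 lower at 0 h, 14 higher and 1 lower with IFNα, and 8 higher and 2 lower with LPS. Ifit1, whose product binds viral RNA without a 2′-O-methylated cap, had 5.64, 650.2 and 42.7 TPM in Irf2KO cells, against 1.71, 74.3 and 2.97 TPM in WT cells (2.62 ± 0.27). Rsad2, which encodes viperin, had 2.44, 147 and 17.4 TPM in Irf2KO cells, against 0.48, 6.59 and 0.51 TPM in WT cells (3.03 ± 0.37). Isg15, the ubiquitin-like modifier, had 7.03, 414.5 and 162 TPM in Irf2KO cells, against 4.15, 133 and 28.1 TPM in WT cells (1.59 ± 0.22). For Ifit1 and Rsad2 the LPS pair (3.46 and 3.60) differed by an amount similar to that of the IFNα pair (3.11 and 4.28), and the WT libraries with LPS stood near those at 0 h. Usp18, the protease that removes ISG15 and restrains the interferon receptor, had 11.1, 389 and 13.8 TPM in Irf2KO cells, against 4.94, 158 and 5.16 TPM in WT cells (1.20 ± 0.09). The pairs of Usp18 ran from 1.03 to 1.30, so its difference was of similar size at 0 h and with either treatment. With the robust prior variance the calls of Ifit1 (adjusted p = 0.27), Rsad2 (0.32), Cmpk2 (0.44) and I830012O16Rik (0.56) were lost, while those of Usp18 and Isg15 were kept.

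**Figure D3:**
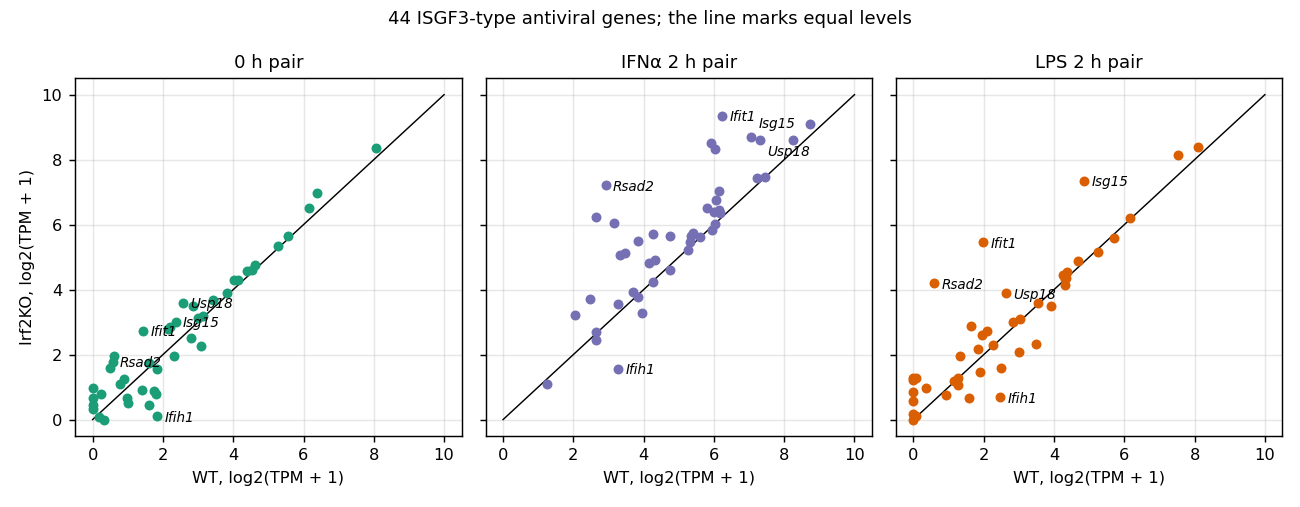
Level of 44 ISGF3-type antiviral genes in Irf2KO (vertical axis) against WT (horizontal axis), both as log2(TPM + 1), 1 panel per pair and 1 point per gene, with a line of equal levels. Most points lie near the line at 0 h, 14 lie at least 2-fold above it with IFNα, Ifit1, Rsad2 and Isg15 stand far above it with LPS, and Ifih1 lies below it in each panel.

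The antiviral genes that were lower in Irf2KO cells were Ifih1, Parp14 and Epsti1. Ifih1, which encodes the double-stranded RNA sensor MDA5, had 0.07, 1.97 and 0.61 TPM in Irf2KO cells, against 2.56, 8.65 and 4.53 TPM in WT cells (−1.74 ± 0.15; adjusted p = 4.2e-06, limma). Parp14, a mono-ADP-ribosyltransferase (−0.75 ± 0.17), and Epsti1 (−0.68 ± 0.17; −0.43 without the LPS pair, where the adjusted p was 0.058) differed less. Of all tested genes 2.67% were called higher and 2.1% lower. Among 28 tested genes of nucleic acid and TLR sensing 3 were called higher and 2 lower, with a median of 0.04. The lower ones were Ifih1 and Tlr3, the endosomal receptor for double-stranded RNA, which had 0.25, 3.52 and 0.35 TPM in Irf2KO cells, against 2.75, 12.6 and 1.86 TPM in WT cells (−1.42 ± 0.16). Both sensor genes rose with IFNα in either genotype and stayed lower in Irf2KO cells, Tlr3 by 1.85 in Irf2KO cells and 1.86 in WT cells. Ddx58, which encodes the related RNA sensor RIG-I, was not called over the 3 pairs, at −0.25 ± 0.15. In the replicated libraries Ddx58 was called lower in media (−1.41 ± 0.19; adjusted p = 0.00095, limma). With IFNα it had −0.71 ± 0.19 there and was not called (adjusted p = 0.15). Tlr6 (0.72 ± 0.12), Zbp1 (0.88 ± 0.17), a sensor of Z-form nucleic acid, and Tlr2 (0.26 ± 0.06) were higher.

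Counts for signalling components stand beside 4.77% of all tested genes called in either direction. Of 19 tested genes for interferon receptors and JAK-STAT proteins, the 1 called was Socs1, a feedback inhibitor of JAK kinases, with 6.17, 24.7 and 7.78 TPM in Irf2KO cells, against 3.5, 10.5 and 3.49 TPM in WT cells (0.93 ± 0.13). Irf9, the DNA-binding subunit of ISGF3, had 5.15, 32.8 and 5.61 TPM in Irf2KO cells, against 4.47, 33.5 and 3.92 TPM in WT cells, and was not called (0.19 ± 0.12). Irf1, the factor that shares the binding element with IRF2, had 12.4, 138 and 42.2 TPM in Irf2KO cells, against 10.2, 164 and 40.8 TPM in WT cells (0.02 ± 0.10, not called). Of the 10 tested IRF family genes 1 was called, Irf5, at 0.34 ± 0.07. Ifnb1, the gene of interferon beta, did not pass the filter and was listed at 0.25, 0.59 and 3.75 TPM in Irf2KO cells, against 0, 0 and 0.92 TPM in WT cells.

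Genes of MHC class I presentation moved both ways. Of 20 tested genes 6 were called higher in Irf2KO cells and 5 lower, with a median of −0.06. The shares over all tested genes were 2.67% and 2.1%. The lower genes serve peptide supply. Tap2, a subunit of the transporter that carries peptides into the endoplasmic reticulum, had 10.2, 33.1 and 11.2 TPM in Irf2KO cells, against 28.1, 52.2 and 36.8 TPM in WT cells (−1.22 ± 0.14). Erap1, which trims peptides there, had 17.3, 29.7 and 16.1 TPM in Irf2KO cells, against 47.2, 50.9 and 43.0 TPM in WT cells (−1.17 ± 0.12). For both genes the difference was smaller with IFNα, at −0.64 and −0.75, than in the other pairs, at −1.36 or beyond. Psme1 (−0.98 ± 0.09) and Psme2 (−0.65 ± 0.10), the subunits of the proteasome activator PA28, were lower too. Psmb8, an immunoproteasome subunit, went the other way, with 279, 368 and 263 TPM in Irf2KO cells, against 149, 228 and 163 TPM in WT cells (0.76 ± 0.06). Psmb9, another immunoproteasome subunit, was lower by −0.47 ± 0.11. Median-of-ratios scaling (limma, adjusted p = 0.055) and quantile normalisation (0.072) did not keep this call. H2-T22 (0.96 ± 0.25), Tapbp (0.47 ± 0.08), H2-M3 (0.43 ± 0.10), B2m (0.32 ± 0.04) and H2-T23 (0.27 ± 0.07) were called higher. The value of H2-T22 rests on the IFNα pair, at 2.07, against 0.26 at 0 h and 0.55 with LPS, and without that pair it was 0.40 and not called (adjusted p = 0.33). H2-M3 had 0.36 without the IFNα pair and H2-T23 0.20 without the 0 h pair, where each call was lost (limma, adjusted p = 0.20 and 0.056). The classical heavy chain gene H2-K1 (−0.11 ± 0.08), Tap1 (0.20 ± 0.14) and the class I transactivator gene Nlrc5 (−0.07 ± 0.13) were not called. None of the 20 tested constitutive proteasome subunits was called in either direction. With 1 prior variance 1 class I presentation gene was called higher and 2 lower, and without the filter 1 and 3.

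MHC class II genes were higher in Irf2KO cells in these 3 pairs. Of 11 tested genes 6 were called higher and 0 lower, beside 2.67% and 2.1% of all tested genes. Their median was 0.40, and 4 were called higher with 1 prior variance and 2 without the treatment term. The chain genes H2-Aa and H2-Ab1 had 467, 453 and 499 TPM and 183, 168 and 183 TPM in Irf2KO cells, against 275, 277 and 293 TPM and 75.4, 87.6 and 106 TPM in WT cells. The differences were 0.74 ± 0.05 for H2-Aa and 0.99 ± 0.08 for H2-Ab1. H2-Eb1 (0.74 ± 0.06), the peptide-editing H2-DMa (0.66 ± 0.08) and H2-DMb1 (0.37 ± 0.07), and the invariant chain gene Cd74 (0.31 ± 0.04) were the others called. The Irf2KO library was the higher one at each treatment for all 6. In the replicated libraries the values lay near 0. There IRF2KO minus WT in media was −0.03 ± 0.15 for H2-Aa, 0.01 ± 0.15 for H2-Ab1, 0.04 ± 0.20 for H2-Eb1 and 0.03 ± 0.13 for Cd74, none of them called (adjusted p = 0.97 to 0.99, limma). The difference between the sets of libraries was itself not tested.

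**Figure D4:**
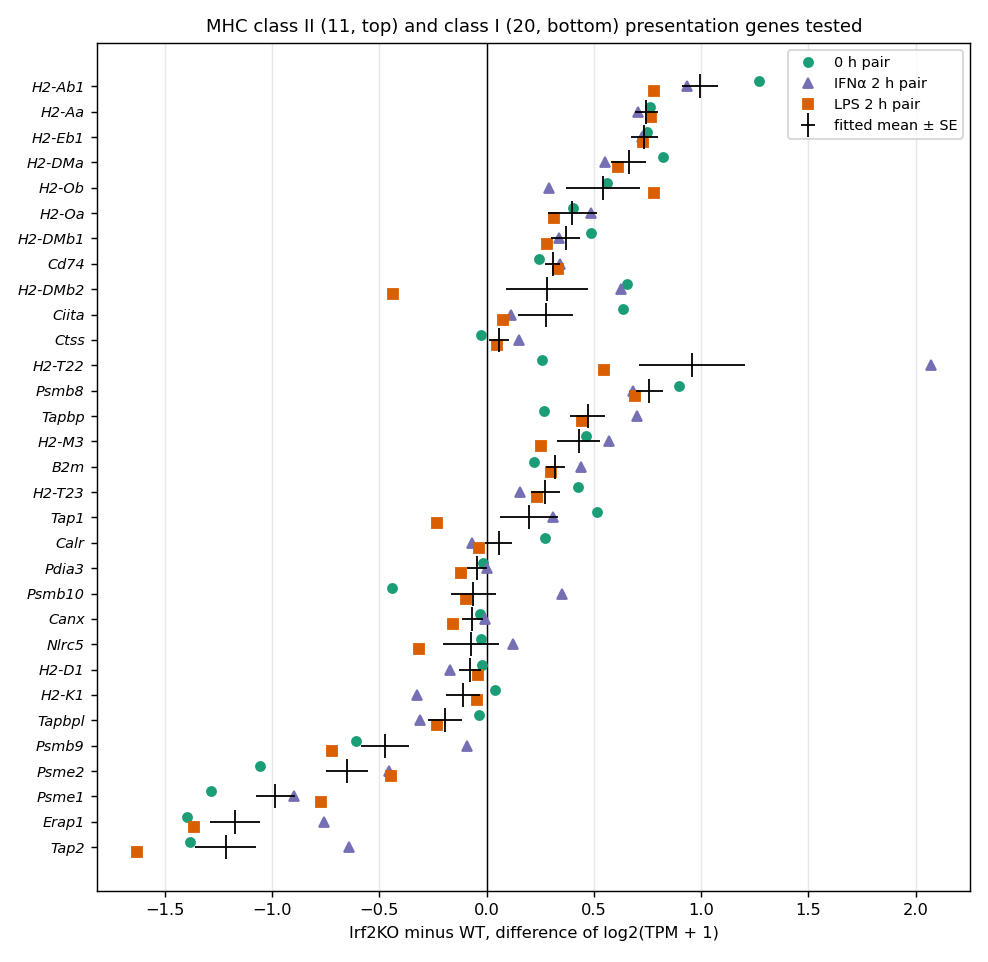
Difference of log2(TPM + 1), Irf2KO minus WT, for the 11 tested MHC class II genes (upper block) and the 20 tested MHC class I presentation genes (lower block). Symbols are single pairs and the black mark is the fitted mean with its SE. The class II genes called lie right of 0 in every pair, and the class I block runs from H2-T22 at 0.96, with its IFNα pair at 2.07 far from the others, to Tap2 at −1.22.

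Of 9 tested checkpoint and costimulatory ligands 3 were called higher and 1 lower, with a median of 0.11. The shares over all tested genes were 2.67% and 2.1%. Cd274, which encodes the inhibitory ligand PD-L1, had 30.7, 94.7 and 53.6 TPM in Irf2KO cells, against 13.4, 37.6 and 21.5 TPM in WT cells (1.24 ± 0.09; adjusted p = 6.8e-07, limma). Its 3 pairs gave 1.14, 1.31 and 1.28, so that Cd274 rose with IFNα in either genotype and kept its distance. Cd40, a costimulatory receptor of antigen-presenting cells, was higher by 0.68 ± 0.08 and Lgals9, the gene of galectin-9, by 0.59 ± 0.07. Tnfsf9, the ligand of the T cell receptor 4-1BB, was lower by −0.69 ± 0.16, at −0.44 without the IFNα pair, where the call was lost (adjusted p = 0.11), as it was with the robust prior (0.081).

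Cell death genes also moved both ways, beside 2.67% higher and 2.1% lower calls among all tested genes. Of 19 tested 3 were called higher and 3 lower, with a median of 0.06. Gsdmd, described above, was the lower one with the largest difference. Casp1, the inflammatory caspase that cleaves gasdermin D, was higher, with 131, 174 and 164 TPM in Irf2KO cells, against 95.2, 106 and 86.1 TPM in WT cells (0.70 ± 0.08). The inflammasome adaptor gene Pycard (0.35 ± 0.08) and the death receptor gene Fas (0.70 ± 0.09) were higher as well. Within the pyroptosis pathway the caspase and its adaptor were higher and the pore-forming substrate lower.

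For cytokine and LPS-response genes the counts stand beside 2.67% called higher and 2.1% called lower among all tested genes. Of 19 tested cytokine and chemokine genes 4 were called higher and 2 lower, with a median of 0.07 (1 higher and 1 lower after quantile normalisation). Ccl5, a T cell chemokine, had 53.1, 50.4 and 401 TPM in Irf2KO cells, against 34.0, 32.8 and 85.7 TPM in WT cells (1.15 ± 0.21; not called with the robust prior, adjusted p = 0.46). The LPS pair set it apart, at 2.21 against 0.63 and 0.61 in the other pairs. Cxcl10 had 13.9, 364 and 2347 TPM in Irf2KO cells, against 15.3, 165 and 989 TPM in WT cells (0.75 ± 0.18), higher in Irf2KO cells with IFNα and with LPS but not at 0 h. Il15 (0.78 ± 0.17; not called with the robust prior, adjusted p = 0.10) and Ccl17 (0.79 ± 0.14) were higher, and the monocyte chemokines Ccl12 (−0.77 ± 0.09) and Ccl2 (−0.39 ± 0.09) lower. In the replicated libraries Ccl12 went the other way in media (1.30 ± 0.64, not called without a block for replicate number). Ccl17 had −0.92 ± 0.66 in media and 0.05 ± 0.66 with IFNα there, and Il15 −0.02 ± 0.59 and 0.03 ± 0.59. Ccl5 and Cxcl10 stayed positive and Ccl2 negative in both contrasts, and none of these 5 genes was called. Single pairs weigh on some of these values, since Cxcl10 had 1.19 without the 0 h pair, Ccl5 0.62 and Il15 0.43 without the LPS pair, and Ccl2 −0.21 without the 0 h pair and −0.59 without the LPS pair. Of 24 tested NF-kB feedback and LPS early genes 2 were higher and 1 lower, with a median of 0.06. Irg1, the enzyme that makes itaconate, had 5.06, 23.1 and 249 TPM in Irf2KO cells, against 1.03, 7.33 and 105 TPM in WT cells (1.45 ± 0.10). Ptgs2, the inducible cyclooxygenase, was higher by 0.73 ± 0.14 and Ier3 lower by −0.42 ± 0.08. Tnf, at 10.2, 11.1 and 311 TPM in Irf2KO cells, against 9.71, 12.8 and 203 TPM in WT cells, was not called (0.16 ± 0.12), nor was Il12b (0.17 ± 0.18), which was listed at 0 except with LPS, at 7.74 TPM in Irf2KO cells and 5.16 TPM in WT cells.

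Lists outside the interferon response held calls as well, beside 2.67% higher and 2.1% lower among all tested genes. Of 25 tested cell cycle genes 4 were lower, with a median of −0.13: Rrm2 (−0.31 ± 0.05), Mcm3 (−0.28 ± 0.06), Mcm7 (−0.27 ± 0.06) and Mcm5 (−0.25 ± 0.06). Without the IFNα pair Mcm3, Mcm7 and Mcm5, genes of replication licensing, had −0.28, −0.26 and −0.26, close to their values over all pairs. Their calls were lost there (limma, adjusted p = 0.052, 0.080 and 0.12), as was that of Mcm5 without the LPS pair, at −0.20. Such fits have 1 residual degree of freedom, so a lost call is no check of stability. Of 6 tested dendritic cell markers, with a median of 0.07, Batf3 (0.44 ± 0.09) and Id2 (0.25 ± 0.05) were higher. The call of Id2 was lost without the IFNα pair (0.19; limma, adjusted p = 0.19). In the replicated libraries Batf3 had 0.08 ± 0.23 in media and 0.06 ± 0.23 with IFNα, and Id2 −0.25 ± 0.16 and 0.06 ± 0.16, none called. There the dendritic marker Itgax was called lower in media (−0.66 ± 0.13; adjusted p = 0.017, limma). Of 13 tested macrophage and monocyte markers, with a median of −0.04, C1qa (−0.84 ± 0.11), C1qb (−0.51 ± 0.06) and the receptor gene Csf1r (−0.36 ± 0.07) were lower. C1qa and C1qb are complement genes. In the replicated libraries these genes had −0.84, −0.89 and −0.29 in media, and −0.62, −0.79 and 0.02 with IFNα. None of these values was called without the block for replicate number, and with it only those of C1qb were. The part of cell state in the other differences was not tested. Of 13 stress and immediate early genes 1 was called, Trib3, at −0.62 ± 0.12.

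**Figure D5:**
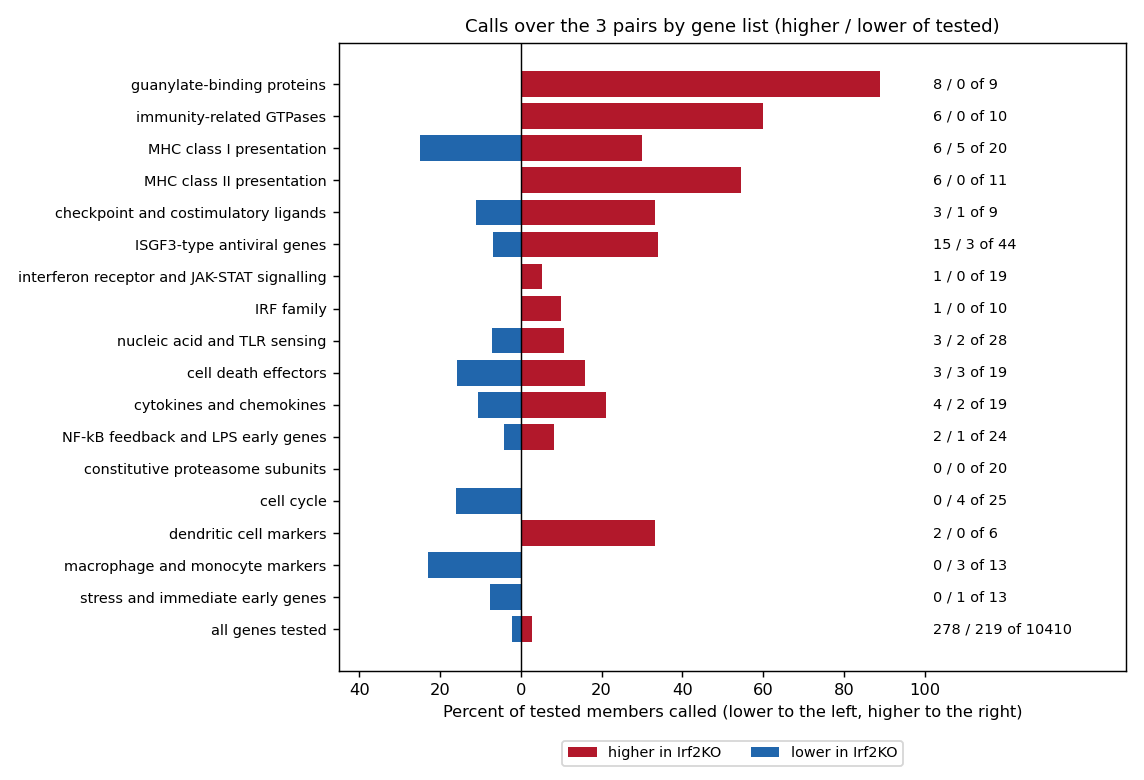
Percent of the tested genes of each list that were called higher (right, red) or lower (left, blue) in Irf2KO cells over the 3 pairs, with the counts at the right edge and all 10410 tested genes in the lowest row. GBP genes (8 of 9), IRG genes (6 of 10) and MHC class II genes (6 of 11) were called in 1 direction, and MHC class I presentation (6 higher, 5 lower of 20) in both.

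The treatments raised similar numbers of genes in both genotypes. With IFNα 188 genes rose at least 2-fold over 0 h in Irf2KO cells and 167 in WT cells, of which 132 did so in both. With LPS the counts were 251 in Irf2KO cells and 228 in WT cells, 191 of them shared. Falls of at least 2-fold with LPS numbered 196 in Irf2KO cells and 93 in WT cells, while the median LPS response of all tested genes was −0.15 in Irf2KO cells and −0.05 in WT cells. Of the 167 genes that IFNα raised in WT cells, 31.7% were called higher in Irf2KO cells and 4.79% lower. Of the 278 higher calls 19.1% were such genes, against 1.6% of all tested genes. The WT libraries enter both quantities, so these shares are a description. ISGF3-type genes had a median IFNα response of 2.48 in Irf2KO cells and 2.11 in WT cells.

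For some genes the difference between Irf2KO and WT cells varied between the pairs. Compared with 0 h it grew most in the IFNα pair for Rsad2 (4.28 with IFNα, 1.22 at 0 h), Cmpk2 (3.61 and 0.96), I830012O16Rik, an Ifit family member (2.90 and 0.45), and Gm14446 (2.52 and 0.70). All 4 are interferon-inducible and rose with IFNα in both genotypes. In the LPS pair the genes in which it grew included Rsad2 (3.60 with LPS, 1.22 at 0 h), Ifit1 (3.46 and 1.29) and Nos2, the inducible nitric oxide synthase (2.33 and 0.24). Nos2 had 48.8 TPM with LPS in Irf2KO cells and 8.9 TPM in WT cells, and was listed at 0 in WT cells without LPS. Compared with 0 h the difference fell most in the IFNα pair for Gbp2 (above), Hist1h4h (−1.61 with IFNα, 0.11 at 0 h), Hist1h3g (−1.04 and 0.44) and Selenbp1 (−1.02 and 0.35). In the LPS pair it fell most for Selenbp1 (−1.46 with LPS), 1500011B03Rik (−0.74), Hist1h3g (−0.96) and Hmha1 (−0.32). Mir703 was listed at 0 in Irf2KO cells at 0 h and at 11.4 to 17.5 TPM in the other 5 libraries. All of these are single libraries, and none of the changes between pairs has a test.

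The replicated libraries offer a contrast of IRF2KO and WT in other samples. Their media groups are listed at 2 h, whereas the untreated single libraries are at 0 h. Whether the edited lines of the sets are the same is not said in the labels. Of the entries for symbols with 2 entries in the deposited table, 7620 are above 0 in the single libraries and 8460 in the replicated ones, and 0 in both, so the sets use different entries and differences rather than levels are set beside each other. There limma called 33 genes higher (0.279%) and 66 lower (0.557%) in IRF2KO than in WT in media, of 11842, and 74 higher (0.625%) and 41 lower (0.346%) with IFNα. Over the 10199 genes tested in both sets, 26 of the 274 genes higher over the 3 pairs were also called higher in media (9.49% of the pairs' calls, 81.2% of the 32 replicated calls). Of the 210 lower genes 32 were also lower in media (15.2%, and 58.2% of 55). With IFNα the shared calls were 41 higher (15% and 60.3% of 68) and 23 lower (11% and 67.6% of 34). No gene was called in opposite directions. In a fit with a block for replicate number the shared calls were 55 and 59 in media, and 84 and 40 with IFNα, and 2 genes lower over the pairs were called higher, Ccl12 in media (1.30; adjusted p = 0.049) and Spp1 with IFNα (0.72; adjusted p = 0.018). Of the genes called higher over the pairs 88.7% had a positive difference in media, where 37.5% of all tested genes did, and of the lower ones 89.5% had a negative one, against 62.5%. With IFNα the shares were 89.4% against 65.3%, and 76.7% against 34.7%.

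Several of the largest differences were also called in the replicated libraries, and others were not. Gbp2 had 6.52 at 0 h and 4.42 with IFNα in the single pairs, against 6.14 ± 0.41 in media and 4.01 ± 0.41 with IFNα in the replicated libraries. Rsad2 had 1.22 and 4.28 in the single pairs, against 0.89 ± 0.22 and 5.17 ± 0.22. Ifit1 had 1.29 and 3.11 in the single pairs, against 0.45 ± 0.22 and 2.98 ± 0.22, and in the replicated set it was called with IFNα and not in media. Among the lowered genes Ctso (−3.12 ± 0.17 in media and −3.19 ± 0.17 with IFNα), Gsdmd (−2.95 ± 0.24 and −2.78 ± 0.24), Acadl (−3.18 ± 0.26 and −2.91 ± 0.26), Arsb (−2.78 ± 0.23 and −2.67 ± 0.23) and Ifih1 (−2.05 ± 0.15 and −2.27 ± 0.15) were called lower in both replicated contrasts. Psmb8 was called higher in both (0.88 ± 0.12 and 0.98 ± 0.12). Tap2 and Erap1 had −0.64 and −0.75 with IFNα in the single pairs, against −1.19 ± 0.29 (adjusted p = 0.072, and 0.015 with the block) and −0.58 ± 0.23 (0.46, and 0.27 with the block) in the replicated libraries, where both were called lower in media (−2.25 ± 0.29 and −1.41 ± 0.23). Without the block, other genes were called in media only or in neither replicated contrast. Ly6a had 2.41 at 0 h and 1.14 with IFNα in the single pairs, against 1.38 ± 0.34 (adjusted p = 0.088, and 0.00054 with the block) and 0.34 ± 0.34 (0.84, and 0.43 with the block). C1ra had −1.14 and −1.52 in the single pairs, against −0.63 ± 0.18 (0.22, and 0.0043 with the block) and −0.43 ± 0.18 (0.47, and 0.0497 with the block). Scimp had 1.96 and 1.54 in the single pairs, against 1.69 ± 0.57 (0.42, and 2.9e-05 with the block) and 1.59 ± 0.57 (0.36, and 4.9e-05 with the block). Calcrl was called lower in media (−1.12 ± 0.18) and not with IFNα (−0.68 ± 0.18; 0.11, and 0.052 with the block). Isg15 had 0.64 at 0 h and 1.64 with IFNα in the single pairs, against −0.97 ± 0.38 in media and 0.68 ± 0.38 with IFNα, neither called. Cd274 had 1.14 and 1.31 in the single pairs, against 0.35 ± 0.24 in media and 0.81 ± 0.24 with IFNα (adjusted p = 0.80 and 0.19). In the fit with that block the value with IFNα was called (adjusted p = 0.0054). LPS was given to no replicated library, so the LPS pair has no counterpart.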

How the data were processed

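RNA sequencing was done in 30 libraries of DC3.2 cells. Their TPM values come from a single table made and deposited by the authors, used as given. Per the submitters' processing notes the tools were bcl2fastq 2.20, Bowtie 0.12.2 and RSEM, and the builds named are mm10 and GRCm38, with no role given to either. TPM keeps no read counts, so the depth is unknown and no count model was used. Entries that share a gene symbol were summed, 9919 of 31427 symbols having 2 entries. No column was left out.

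The 6 single libraries were fitted with limma 3.58.1 (R 4.3.3) on the log2(TPM + 1) scale, with terms for treatment and genotype and a prior variance that follows the mean level. This fit held the 10410 genes that reached 1 TPM in 2 or more of these libraries. The two-sided p-values carry the Benjamini-Hochberg correction over every gene in the fit, and calls were made at 0.05. Fold changes are differences of log2(TPM + 1), which understate changes of low genes. For the replicated libraries the fit had a mean for each of the 12 groups. It covered the 11842 genes that reached 1 TPM in 2 or more of 24 libraries. Nothing in the labels says that libraries come from separate cultures, so p-values measure only the spread between these samples. The titles give every library of 1 replicate number the same date-like code, so the numbers were taken to pair the replicated samples. In 56 of 66 group pairs the correlation of the deviations from the group means passed 0.1, with a median of 0.233.

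Genes were named by rule: the 10 called genes with the largest difference in each direction and at least 5 TPM in all 3 libraries of the higher genotype, the 3 most different per pair and direction with at least 10 TPM, the 4 per direction whose difference changed most from 0 h with IFNα or with LPS (at least 20 TPM in 1 library), up to 4 called genes per list, and 22 genes by name. The further genes named were chosen after their values were seen, and some genes that the rule picks are not reported here. The 19 gene lists include lymphocyte and fibroblast markers, none of which passed the filter. The comparison, lists and rules were chosen with earlier results of these data known. The fit was tested on simulated data. Alternatives changed the pseudocount, the filter, the scaling between libraries, the prior variance, the treatment term and the pairs included. Promoter sequences and gene positions are RefSeq's on GRCm38.p6. Plots and motif counts used Python 3.11.15 with pandas 2.3.3, numpy 2.4.6 and matplotlib 3.10.9.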

Additional observations from a re-analysis of the deposited data

Results flagged for a closer look

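Of the named genes reported here, 1500011B03Rik had a difference of at least 0.5 in one direction in 1 pair and of at least 0.5 in the other direction in another, and this was not tested. Other named genes, among them Hist1h3g and Selenbp1, also changed sign between pairs, with less than 0.5 on 1 side. Irf2KO minus WT was −0.74 on the log2(TPM + 1) scale with LPS and 0.77 at 0 h, lower with LPS by 1.502. The gene had 10.3 TPM with LPS and 21.03 TPM at 0 h in Irf2KO cells, against 17.9 and 11.95 TPM in WT cells. It was not called over the 3 pairs.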

How the results depend on the processing

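The 278 higher and 219 lower calls over the 3 pairs became 95 and 53 without the filter on low values, 70 and 52 with 1 prior variance, and 10 and 10 without the treatment term. Median-of-ratios scaling gave 143 lower calls. Leaving out 1 pair gave 210 to 402 higher and 148 to 498 lower calls, with 1 residual degree of freedom, so those p-values rest almost wholly on the prior variance and are no check of stability. No gene was called in opposite directions under any of these settings. The 82 named genes include some, such as Irf1, Irf2 and Tnf, that were not called and so had no call to lose. Without the treatment term 53 of the 82 lost a call, with 1 prior variance 26, and without the filter 20. With the robust prior 11 lost a call, after quantile normalisation 8 and after median-of-ratios scaling 5.

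The single-pair counts depend on how low values are treated. Genes at least 2-fold higher in all 3 pairs numbered 23, and 10 at a pseudocount of 5. Those at least 2-fold lower numbered 14, with 25 at a pseudocount of 0.1, 5 at a pseudocount of 5 and 8 at a mean of at least 5 TPM. At the same 3 settings the 127 genes at least 2-fold apart at 0 h became 317, 34 and 76, the 124 with IFNα 301, 51 and 65, and the 109 with LPS 286, 43 and 63.

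In the replicated libraries the 99 calls in media and 115 with IFNα became 213 and 254 in a fit with a block for replicate number, and 40 to 57 and 54 to 95 without 1 library at a time. No paired analysis by replicate number was possible for the single libraries, because they have 1 library per group. The sign of 7 named genes turned when 1 pair was left out. Over such fits the lowest and highest differences were −0.31 and 0.44 for 1500011B03Rik, −0.21 and 0.33 for Hmha1, −0.10 and 0.15 for Irf1, and −0.063 and 0.27 for Irf8, each lowest without the 0 h pair. They were −0.82 and 0.0365 for Hist1h4h, highest without the IFNα pair, −0.17 and 0.0495 for Nlrc5, highest without the LPS pair, and −0.065 and 0.34 for Tnf, lowest without the LPS pair. The cause was not tested.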
